A study of Mus musculus with 71 samples.

Results

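Microglia of the stroke-injured mouse cortex that carried the signal of an Spp1 reporter were set against microglia of the same injured cortex that did not. All 12 libraries came from Spp1-GFP heterozygous mice, in which GFP reports the activity of Spp1, and the cells were sorted by GFP before sequencing. They comprised 4 libraries of GFP-positive and 4 libraries of GFP-negative microglia from the stroke cortex, with 4 libraries of microglia from the contralateral cortex as a further group that shared the estimate of spread. The labels call the model P28 SIMPLE with the disease state stroke and a collection age of P35. P28 is read here as the postnatal day of the stroke. The contralateral libraries carry the GFP-negative gate in the names of their data columns. These 8 libraries were taken from 67 bulk libraries among the 71 samples of a study of Spp1-GFP microglia in 6 disease models. The study asked how heterogeneous reactive microglia are and which molecular signature they carry in different disorders. Every library held 2000 sorted microglia and was made with a modified SMART-Seq2 protocol, which copies whole transcripts. The sources used here do not say whether libraries of a group came from separate mice, so p-values measure the spread between libraries, which may be technical. They also do not say how many mice went into a library or whether the reporter allele still makes osteopontin.

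Of the 55413 genes in the table, 14303 had at least 1 TPM in 4 or more of the 12 libraries and were tested. TPM is a level of transcripts corrected for transcript length and scaled to the same total in every library. Differences are GFP-positive minus GFP-negative means of log2(TPM + 1), which understates the change of genes near 0 TPM. A gene is said to have risen or fallen when its adjusted p was under 0.05 in limma, a linear model fitted to all tested genes at once, after Benjamini-Hochberg adjustment.

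Microglia are the resident macrophages of the brain. In healthy cortex they express a homeostatic programme that includes P2ry12 and Tmem119, which depends on TGF-beta. Around dying cells and debris they can take on a disease-associated state, marked by Apoe, Cst7 and lipid-handling genes, that has much in common with the amoeboid microglia of the early postnatal white matter. Osteopontin, the product of Spp1, is a secreted matrix protein that binds integrins and CD44, and Spp1 is among the genes switched on in both states.

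Spp1 (chromosome 5, chr5:104435118-104441050, plus strand, GRCm38) checks the sort. It stood at 607, 3867, 2708 and 308 TPM in GFP-positive libraries 1 to 4, against 11.1, 22.5, 41.6 and 0 TPM in GFP-negative libraries 1 to 4 and 1.69, 2.09, 1.72 and 3.83 TPM in the contralateral libraries. Every GFP-positive library lay above every other library, GFP-positive library 4 was the lowest of its group, and GFP-negative library 4 was listed at 0. The difference was 6.82 on the log2 scale (SE 0.99, adjusted p = 0.000306, limma). Because the gate was set on the activity of this gene, its difference is a check of the labels.

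GFP-positive library 4 stood apart from the other 3 libraries of its group in many genes. Over the genes that passed the test without the library in question and differed by at least 1 on the log2 scale, its median position was 60.4% of the way from the GFP-negative mean to the mean of the other 3 GFP-positive libraries, against 90.4 to 106% for libraries 1 to 3. On the first principal component, which held 35.5% of the variance, the GFP-positive libraries scored 56.1, 61.4, 61 and 35.9, the GFP-negative libraries between −22.1 and −13.6, and the contralateral libraries between −39.6 and −33. Leaving this library out ended some calls and moved some list counts. Both values are given below for part of these, so a single value does not mean that a result is independent of this library. Genes above 0 TPM numbered 16710 to 17148 in GFP-positive and 17149 to 17580 in GFP-negative libraries, so slightly fewer genes were detected in the positive gate. The sources used here do not give read depth.

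The defining microglial genes were abundant in both gates. Cx3cr1, the fractalkine receptor, averaged 2015 ± 318 TPM in the GFP-positive and 3522 ± 155 TPM in the GFP-negative libraries (SD, n = 4 each). Csf1r, the receptor for the survival factor CSF1, averaged 4429 ± 756 TPM in the positive and 6445 ± 649 TPM in the negative gate.

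Of the tested genes, 4154 (29.0%) passed the test, 838 higher (5.86%) and 3316 lower (23.2%) in GFP-positive microglia. In bulk libraries, fewer cells of a type and less RNA per cell cannot be told apart. The median difference over all tested genes was −0.30 on the log2 scale, so most genes lay slightly lower in the positive gate. TPM values share a fixed total, and Apoe alone took 1.96 to 3.2% of that total in GFP-positive libraries, against 0.176 to 0.43% in GFP-negative libraries. Cytosolic ribosomal protein genes together took 8.35 to 10.2% in GFP-positive and 5.48 to 6.88% in GFP-negative libraries. The part of these genes in the shifted median was not tested. When every library was rescaled by its median ratio to the other libraries, the median difference became −0.015 and 2230 genes passed (15.6%), 1417 higher (9.91%) and 813 lower (5.68%). Of the genes that passed as deposited, 836 were also higher and 813 also lower after this rescaling, and none turned round. The higher genes included 131 that differed by at least 4-fold and the lower genes 24. Small decreases near −0.30 therefore depend on the scaling, and counts after rescaling are given beside each gene group. Where no share stands beside a group's counts for this contrast below, they are to be read against 5.86% higher and 23.2% lower. After rescaling the shares of all tested genes are 9.91% and 5.68%. The 4 libraries of one gate did not overlap the 4 of the other in 4028 genes (28.2%), 786 of them higher (5.50%) and 3242 lower (22.7%). Without GFP-positive library 4, 4607 genes passed (32.2%), 859 higher (6.01%) and 3748 lower (26.2%).

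**Figure D1:**
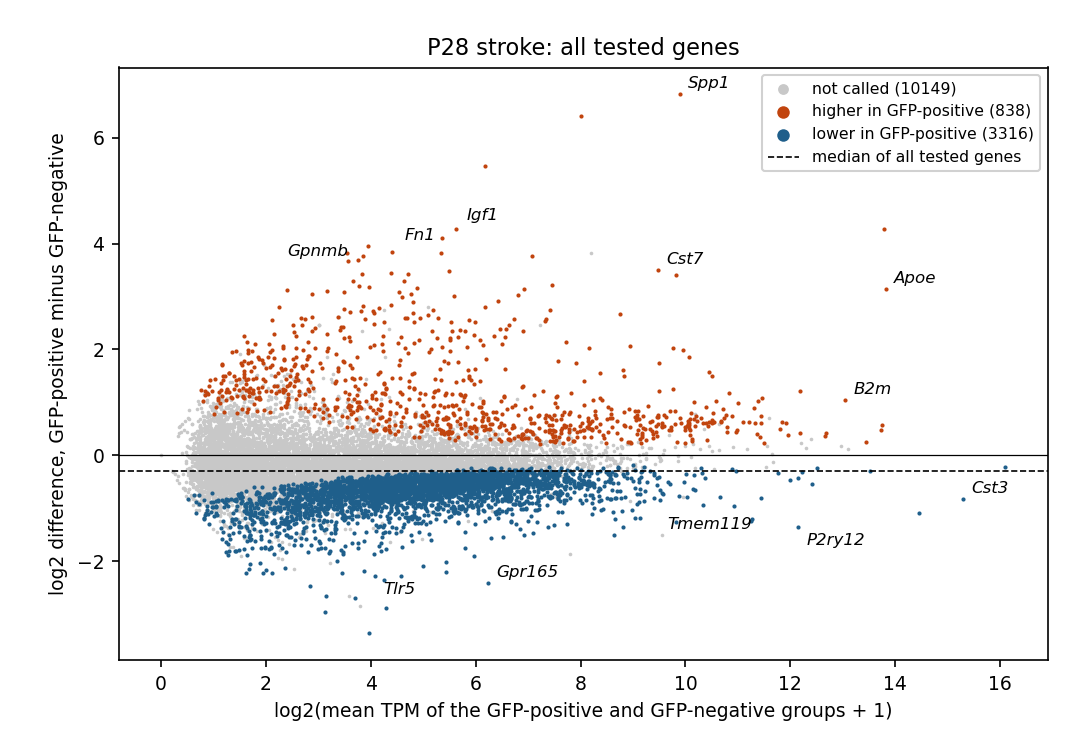
Difference between GFP-positive and GFP-negative microglia (vertical axis, log2) against the mean level of both groups (horizontal axis, log2 TPM + 1) for the 14303 tested genes. Red points are the 838 genes that rose and blue points the 3316 that fell. Rises reached further from 0 than falls, with Spp1, Igf1 and Fn1 at the top and Gpr165 and Tlr5 among the lowest labelled points, while the dashed median lies at −0.30.

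The 15 largest rises on the log2 scale included Igf1, Fn1 and Mmp12. They were taken only from genes whose gates did not overlap, so the lack of overlap in each of them was part of the choice. Igf1 (chromosome 10, chr10:87858265-87937042), an insulin-like growth factor, stood at 49.3, 145, 135 and 42.1 TPM in GFP-positive libraries 1 to 4 and at 8.05, 4.15, 2.63 and 0.79 TPM in GFP-negative libraries 1 to 4. The gates did not overlap, and positive libraries 2 and 3 were the highest (log2 difference 4.28, SE 0.51, adjusted p = 8.77e-05). Fn1, which encodes the matrix protein fibronectin, had 34.8, 122, 137 and 15.9 TPM in the positive and 2.46, 3.91, 1.47 and 1.73 TPM in the negative libraries. Here too libraries 2 and 3 of the positive gate were the highest and library 4 the lowest, without overlap between gates (log2 difference 4.11, SE 0.55, adjusted p = 0.000181). Mmp12, a metalloproteinase that cleaves elastin, had 15.7, 14.7, 23.5 and 28.7 TPM in the GFP-positive and 1.76, 0.18, 0.34 and 0.09 TPM in the GFP-negative libraries. Library 4 was the highest positive library for this gene, and the gates lay far apart (log2 difference 3.82, SE 0.33, adjusted p = 1.33e-05).

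Apoe (chromosome 7, chr7:19696109-19699188), the apolipoprotein that carries lipids between brain cells, had the largest rise in absolute level. Its values were 30923, 31973, 21235 and 19580.3 TPM in the GFP-positive libraries, against 3705, 4303, 2456 and 1758 TPM in the GFP-negative libraries. The lowest positive library lay well above the highest negative one (log2 difference 3.14, SE 0.24, adjusted p = 6.89e-06). Gpnmb, a transmembrane glycoprotein of lipid-laden phagocytes, was at 14, 34.6, 25.4 and 22 TPM in the positive and 0.65, 1.88, 1.51 and 0 TPM in the negative libraries and was listed at 0 in negative library 4 (log2 difference 3.68, SE 0.35, adjusted p = 2.17e-05). Cst7, an inhibitor of cathepsins known as cystatin F, had 1435, 1393, 1619 and 769.8 TPM in the positive and 178, 109.5, 131 and 57.3 TPM in the negative libraries. Positive library 4 was the lowest of its gate and still lay above all negative libraries (log2 difference 3.50, SE 0.34, adjusted p = 2.73e-05).

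Also among the 15 largest rises were Fabp3, Fabp5 and Apoc1, which bind fatty acids or ride on lipoproteins and differed by 3.95, 3.47 and 3.83. Ch25h, which makes 25-hydroxycholesterol, had 160.2, 280.2, 405 and 142 TPM in the GFP-positive and 19.6, 34.2, 19.8 and 4 TPM in the GFP-negative libraries (log2 difference 3.77, SE 0.52, adjusted p = 0.000205). The remainder were Saa3, an acute-phase serum amyloid (3.77), Cxcl13, a chemokine for B cells (3.67), Wfdc17, a small secreted inhibitor of proteases (3.44), Baiap2l2, a membrane-bending protein (3.43), and the interferon-inducible Ifi211 (3.43). By absolute level, the 5 largest rises were Apoe, B2m, Ctsd, mt-Rnr2 and Ctsb. For mt-Rnr2, a ribosomal RNA of the mitochondrion, the call was lost with no filter on low genes (log2 difference 0.48, SE 0.10, adjusted p = 0.00253 with the filter, and adjusted p = 0.0513 with none). B2m, the light chain of MHC class I, averaged 11410 ± 1140 TPM in positive and 5526 ± 548 TPM in negative libraries, and Ctsb, a lysosomal protease, 6460 ± 531 and 2809 ± 516 TPM.

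**Figure D2:**
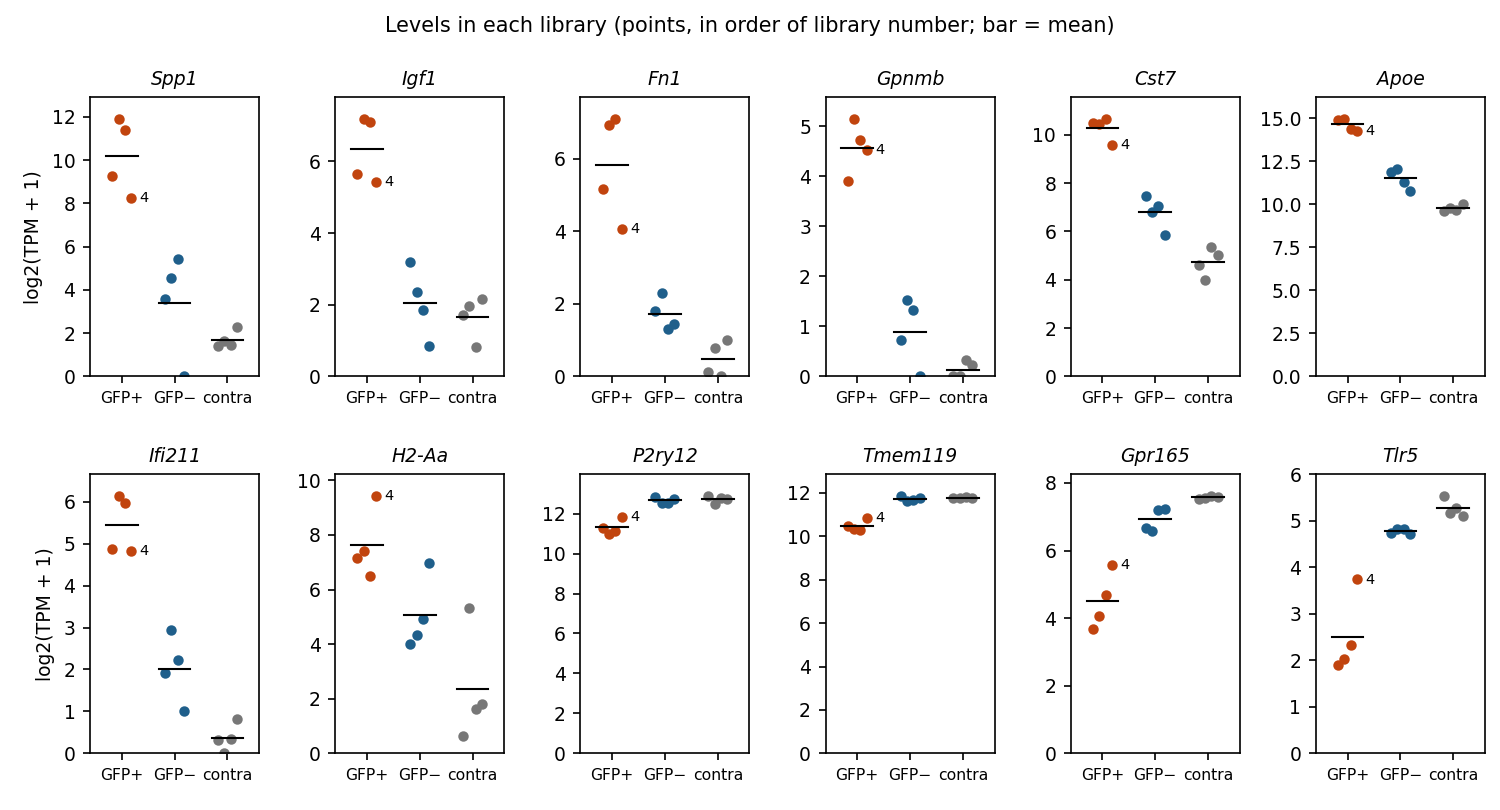
Levels of 12 genes in each library, as log2(TPM + 1), with GFP-positive stroke libraries (red) left of GFP-negative stroke libraries (blue) and contralateral libraries (grey). Points stand in the order of the library number, bars are group means, and 4 marks GFP-positive library 4. The gates are separate in 11 panels and overlap for H2-Aa, and library 4 is the positive library closest to the GFP-negative ones for genes such as Spp1, P2ry12, Gpr165 and Tlr5.

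Genes of disease-associated microglia rose nearly throughout. Of 37 tested members out of 38 (Atp6v0d2 was below the filter), 34 rose and 0 fell, where 5.86% of all tested genes rose, and the median difference was 2.11 against −0.30 over all tested genes. After rescaling 37 rose, and without GFP-positive library 4 the count was 34. As for all gene lists here, members were chosen with earlier results of these data known, so the excess over all genes is a description. Lpl, the lipase that releases fatty acids from lipoproteins, averaged 317 ± 99 TPM in positive and 33.9 ± 12.8 TPM in negative libraries (log2 difference 3.23, SE 0.27, adjusted p = 9.7e-06). Capg, an actin-capping protein, averaged 147 ± 23.8 TPM in positive and 33.1 ± 4.03 TPM in negative libraries (log2 difference 2.11, SE 0.15, adjusted p = 4.96e-06). Cd63, a tetraspanin of late endosomes, averaged 1219 ± 134 TPM in positive and 509.9 ± 32.7 TPM in negative libraries (log2 difference 1.25, SE 0.09, adjusted p = 4.83e-06). Clec7a, the beta-glucan receptor dectin-1, and Itgax, the integrin CD11c, rose by 2.54 and 2.21 on the log2 scale. The members that did not pass were Cd68, a lysosomal glycoprotein (0.18, adjusted p = 0.069), Trem2, the lipid receptor needed for this state in amyloid models (0.15, adjusted p = 0.126), and Cadm1, an adhesion molecule (0.24, adjusted p = 0.143). Trem2 itself was at 2219.5, 1963, 2011 and 1857 TPM in positive and 1844, 1942, 1752 and 1709 TPM in negative libraries, with the gates overlapping, and rose after rescaling (0.48, adjusted p = 0.00246).

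Genes known from amoeboid postnatal microglia rose in 20 of 21 tested members out of 24, with a median of 2.23, and 20 rose after rescaling. Slc23a2, an ascorbate transporter, did not pass (−0.04, adjusted p = 0.761). The list shares members with the disease-associated list, among them Gpnmb, Lpl, Fabp5 and Igf1, and it holds Spp1 itself, so it is no separate evidence. Gpx3, a secreted glutathione peroxidase, averaged 19.2 ± 5.2 TPM in positive and 1.36 ± 0.418 TPM in negative libraries (log2 difference 3.08, SE 0.27, adjusted p = 1.34e-05). Pld3, a lysosomal nuclease, averaged 454 ± 36 TPM in positive and 219.6 ± 16.9 TPM in negative libraries (log2 difference 1.04, SE 0.09, adjusted p = 1.41e-05). The mean level of the list lay 2.21, 2.55, 2.67 and 2.04 above the GFP-negative mean in positive libraries 1 to 4, on the log2 scale.

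Lipid uptake, storage and efflux genes mostly rose, where 5.86% of all tested genes rose and 23.2% fell. Of 29 tested members, 18 rose and 5 fell (21 and 1 after rescaling), with a median of 0.99. Beside the apolipoproteins and fatty acid binding proteins, Nceh1, which hydrolyses cholesterol esters, averaged 36.3 ± 3.77 TPM in positive and 7.54 ± 0.846 TPM in negative libraries (log2 difference 2.13, SE 0.15, adjusted p = 4.96e-06). Npc2, a carrier of cholesterol out of lysosomes, averaged 447 ± 39.3 TPM in positive and 278 ± 19.7 TPM in negative libraries (log2 difference 0.68, SE 0.08, adjusted p = 8.19e-05). Apoc4 had 11.2, 5.55, 13.5 and 4.07 TPM in positive libraries and was listed at 0 in all 4 negative libraries. Acsl1, which activates long-chain fatty acids, fell (log2 difference −0.84, SE 0.16, adjusted p = 0.00156) and was the 1 member that also fell after rescaling (−0.52, adjusted p = 0.0245). The cholesterol synthesis enzymes did not follow: of 20 tested, 0 rose and 1 fell (1 and 0 after rescaling, and likewise without positive library 4), with a median of −0.01.

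Interferon-response genes formed the other large block of rises. Type I interferon signals through a transcription factor complex that binds interferon-stimulated response elements in the promoters of these genes. Their core is written here as GAAA, any 2 bases and GAAA. The 150 bases before the transcription start are shown for the 5 list members with the largest rise whose matches all lie in this stretch, to let the element be seen beside the values. The sequences are those of RefSeq on GRCm38.p6, 5′ to 3′ on the strand of the gene, with each match to this core, on either strand, in capitals.
Ifi211 promoter (chr1:173913047-173913196, minus strand): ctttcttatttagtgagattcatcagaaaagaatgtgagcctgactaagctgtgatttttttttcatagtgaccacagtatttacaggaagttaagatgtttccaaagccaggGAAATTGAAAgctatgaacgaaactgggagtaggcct
Ifi207 promoter (chr1:173741810-173741959, minus strand): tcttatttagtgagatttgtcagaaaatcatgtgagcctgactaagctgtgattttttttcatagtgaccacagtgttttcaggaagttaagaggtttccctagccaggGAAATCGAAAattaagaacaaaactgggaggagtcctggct
Rsad2 promoter (chr12:26456453-26456602, minus strand): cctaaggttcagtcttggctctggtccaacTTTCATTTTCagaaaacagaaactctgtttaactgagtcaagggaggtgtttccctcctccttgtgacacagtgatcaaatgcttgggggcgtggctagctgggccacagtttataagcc
Ifit1 promoter (chr19:34640739-34640888, plus strand): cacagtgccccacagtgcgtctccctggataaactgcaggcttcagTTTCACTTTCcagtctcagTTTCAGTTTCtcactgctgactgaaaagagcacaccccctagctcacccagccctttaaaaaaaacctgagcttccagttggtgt
Oas3 promoter (chr5:120777660-120777809, minus strand): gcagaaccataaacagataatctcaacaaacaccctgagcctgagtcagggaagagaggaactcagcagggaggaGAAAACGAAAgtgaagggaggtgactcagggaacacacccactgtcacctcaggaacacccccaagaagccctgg
The match begins 37 bases before the start in Ifi211, 41 in Ifi207, 120 in Rsad2 and 75 in Oas3, and Ifit1 has 2 matches, at 104 and 85 bases. In the 250 bases before the start, 978 of 32851 RefSeq windows hold the letters on either strand (2.98%), as do 324 of the 9513 tested genes with a window (3.41%). Among the interferon list, 15 of 28 genes with a window hold them (53.6%). Only 73.7% of the 38 genes have a window in this table, which is too few, so the list's share is void as a comparison. A match is a description of the letters and says nothing about binding.

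Of the 38 interferon-response genes tested, 36 rose and 0 fell, with a median of 2.22 against −0.30 over all tested genes. The counts were 36 and 0 after rescaling and also without GFP-positive library 4. This list, too, was chosen with earlier results of these data known. Ifi211, a DNA-sensing protein of the PYHIN family, had 28.2, 69.9, 61.9 and 27.3 TPM in the GFP-positive and 2.76, 6.64, 3.7 and 1.01 TPM in the GFP-negative libraries. Positive libraries 2 and 3 were the highest and library 4 the lowest, with no overlap between gates (log2 difference 3.43, SE 0.40, adjusted p = 8.5e-05). Rsad2, the antiviral enzyme viperin, had 24.1, 70.7, 85.1 and 28.4 TPM in positive and 7.01, 8.48, 8.49 and 3.65 TPM in negative libraries, and libraries 2 and 3 were again the highest (log2 difference 2.6, SE 0.40, adjusted p = 0.000398). Ifit1, which binds foreign RNA caps, had 25.9, 56.0, 74.7 and 18.4 TPM in positive and 8.56, 2.91, 8.57 and 3.78 TPM in negative libraries (log2 difference 2.59, SE 0.41, adjusted p = 0.000538). Ifi207 and Oas3 differed by 2.69 and 2.41.

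Among the members with the smallest adjusted p, Irf7, the factor that amplifies type I interferon, had 152, 227, 256 and 93.5 TPM in positive and 35.7, 32.8, 29.6 and 16.9 TPM in negative libraries (log2 difference 2.57, SE 0.31, adjusted p = 9.87e-05). Ifitm3, which blocks viral entry at endosomes, had 723, 924, 911 and 423 TPM in positive and 155, 109, 128 and 69.5 TPM in negative libraries (log2 difference 2.67, SE 0.30, adjusted p = 6.89e-05). In both genes library 4 was the lowest positive library and lay above every negative one. Sp100, Ifi204, Ifit2 and the ubiquitin-like Isg15 differed by 2.08, 2.38, 2.51 and 2.35. The RNA sensor Ddx58 (0.24, adjusted p = 0.39) and Irf9, a subunit of that complex (0.03, adjusted p = 0.852), did not pass. The mean level of the 38 genes lay 1.78, 2.35, 2.47 and 1.38 above the GFP-negative mean in positive libraries 1 to 4. Ifi211, Ifi207 and Ifi204 are close relatives within 1 gene cluster, and the sources used here do not say how reads shared between such copies were divided, so the split among them is uncertain.

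**Figure D3:**
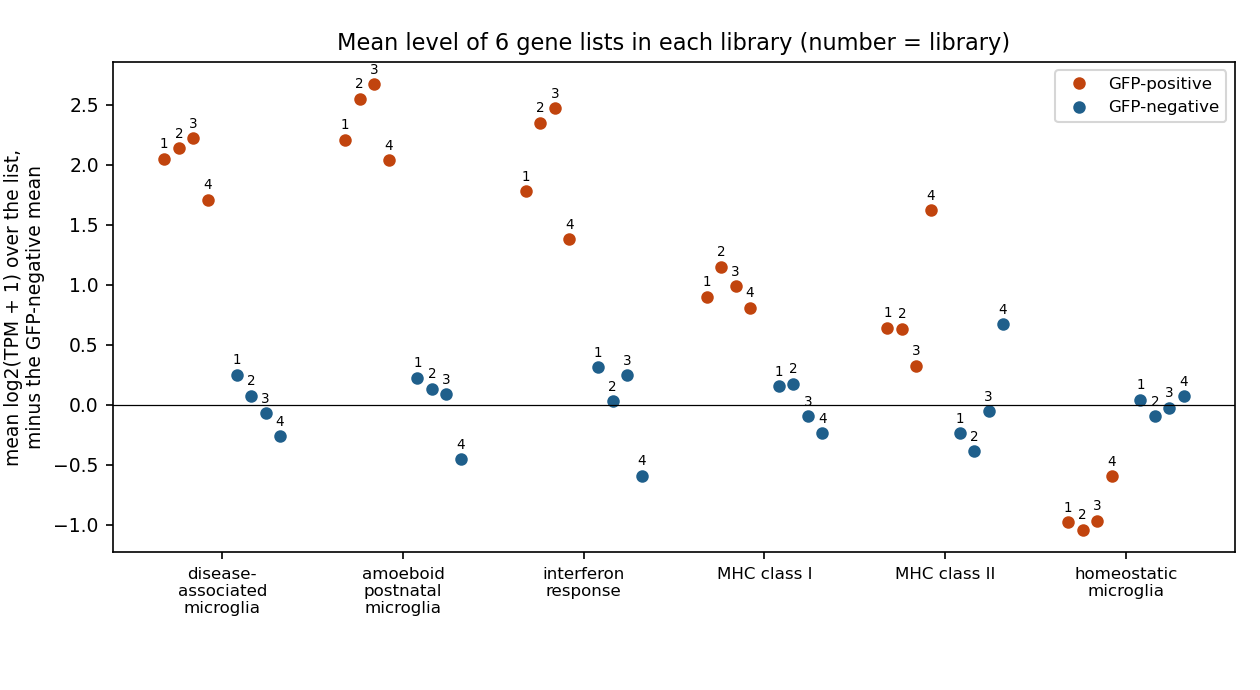
Mean log2(TPM + 1) of the tested members of 6 gene lists in each library, minus the mean of the GFP-negative libraries (vertical axis). GFP-positive libraries (red) stand left of GFP-negative libraries (blue), and numbers name the library. The gates are separate for 5 lists and overlap for MHC class II, where GFP-positive library 4 lies at 1.62 and GFP-negative library 4 at 0.67, the highest of each gate.

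Chemokines, the secreted attractants of leukocytes, rose in 13 of 15 tested members and fell in 1 (13 and 1 after rescaling), with a median of 1.74. Ccl12, which attracts monocytes, had 988, 1222, 1317 and 939 TPM in the GFP-positive and 371, 384, 290.3 and 289 TPM in the GFP-negative libraries, with the gates well separated (log2 difference 1.74, SE 0.16, adjusted p = 1.69e-05). The macrophage inflammatory protein Ccl3 had 385, 523, 648 and 289 TPM in positive and 123, 137, 131 and 59.8 TPM in negative libraries, library 4 being the lowest of both gates (log2 difference 2.03, SE 0.29, adjusted p = 0.000257). Cxcl16, Cxcl14 and Ccl6 rose by 1.31, 1.96 and 0.87. Cxcl10, an interferon-induced chemokine for T cells, had 43.0, 109, 211 and 68.3 TPM in positive and 12.5, 9.23, 31.5 and 14.1 TPM in negative libraries, with the highest value in positive library 3 (log2 difference 2.51, SE 0.57, adjusted p = 0.00521). The member that fell was Ccl24, a chemokine for eosinophils, with 1.1, 4.22, 1.21 and 2.23 TPM in positive and 7.84, 3.85, 8.18 and 14.1 TPM in negative libraries, where positive library 2 lay above negative library 2 (log2 difference −1.56, SE 0.39, adjusted p = 0.00994).

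Of 21 tested cytokine and inflammasome genes, 6 rose and 5 fell (9 and 2 after rescaling), with a median of 0.06. Over all tested genes 5.86% rose and 23.2% fell, so the share that fell was near that of all genes. Il1rn, the antagonist of the interleukin-1 receptor, had 13.1, 41.3, 43.4 and 11.7 TPM in positive and 0.99, 4.14, 0.93 and 1.59 TPM in negative libraries, without overlap (log2 difference 3.17, SE 0.45, adjusted p = 0.000267). Mif, a macrophage cytokine, averaged 494 ± 78.9 TPM in positive and 167 ± 18.4 TPM in negative libraries (log2 difference 1.55, SE 0.14, adjusted p = 1.34e-05). Il6 was low throughout, at 1.47, 0.15, 0.45 and 1.96 TPM in positive and 7.57, 4.69, 6.58 and 3.31 TPM in negative libraries, and fell (log2 difference −1.76, SE 0.34, adjusted p = 0.00214). Il1a and Il18 fell by smaller steps (−0.83 and −0.59), and after rescaling neither passed (−0.51, adjusted p = 0.065, and −0.26, adjusted p = 0.221). Il1b did not pass, with 31.0, 11.5, 28.4 and 35.4 TPM in positive and 18.4, 5.28, 13.9 and 9.95 TPM in negative libraries.

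MHC class I genes, which present peptides to CD8 T cells, rose in 14 of 20 tested members and fell in none (17 and 0 after rescaling), with a median of 0.91. Of the classical heavy chains, H2-K1 averaged 2134 ± 346 TPM in positive and 759 ± 175 TPM in negative libraries (log2 difference 1.5, SE 0.15, adjusted p = 3.24e-05) and H2-D1 2080 ± 309 TPM in positive and 719 ± 228 TPM in negative libraries (log2 difference 1.58, SE 0.18, adjusted p = 8.02e-05). Tap1, a subunit of the peptide transporter, averaged 125 ± 10.3 TPM in positive and 58.6 ± 9.14 TPM in negative libraries (log2 difference 1.09, SE 0.13, adjusted p = 7.31e-05). H2-Q7 and H2-Q4, non-classical chains from a family of close copies, differed by 2.39 and 1.63, with the same doubt about shared reads.

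Part of the MHC class II calls rested on 1 library. H2-Aa, a chain that presents peptides to CD4 T cells, had 143, 169, 89.6 and 694 TPM in the GFP-positive and 14.9, 19.1, 29.4 and 125 TPM in the GFP-negative libraries. Library 4 was the highest of both gates, and negative library 4 lay above positive library 3. Cd74, the invariant chain, had 451, 533, 401 and 1839 TPM in positive and 94.9, 109, 170.4 and 316 TPM in negative libraries, where the gates did not overlap (log2 difference 2.07, SE 0.48, adjusted p = 0.0059). Of 12 tested members 5 rose and 0 fell (5 and 0 after rescaling), and without positive library 4 the count was 3. H2-Aa and H2-Ab1 lost the call without that library, at 2.57 and 2.14 (adjusted p = 0.0495 and 0.023) with it and 1.97 and 1.57 (adjusted p = 0.125 and 0.0552) without it. Cd74, the thiol reductase Ifi30 and the protease Ctss kept theirs (0.00853, 0.00183 and 0.0218). H2-Eb1 did not pass in either (0.0705 and 0.174). Ccr2, the receptor that brings monocytes into tissue, had 7.47, 5.86, 3.22 and 49.3 TPM in positive and 2.87, 4.98, 3.51 and 8.29 TPM in negative libraries, highest in positive library 4 (adjusted p = 0.249). Summed over 21 markers of monocyte-derived cells, the level was 104, 237, 221 and 260.4 TPM in positive libraries 1 to 4 and 55.1 to 99.3 TPM in negative libraries. Among those markers F13a1 and Spn were highest in positive library 4, at 6.75 and 2.29 TPM, whereas Ly6c2 was listed at 0 there and Chil3 at 0 in every library of both gates. The part of such cells in the class II values was not tested.

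The largest falls included receptors, adhesion molecules and signalling proteins. Gpr165, an orphan receptor, had 11.9, 15.8, 24.6 and 47.0 TPM in the GFP-positive and 101, 94.7, 146 and 149.6 TPM in the GFP-negative libraries. Positive library 4 was the highest of its gate and still lay below every negative library (log2 difference −2.42, SE 0.31, adjusted p = 0.000122). Tlr5, the receptor for flagellin, had 2.71, 3.1, 4 and 12.3 TPM in positive and 25.5, 27.3, 27.2 and 25.2 TPM in negative libraries, again with library 4 the highest of the positive gate (log2 difference −2.27, SE 0.31, adjusted p = 0.000186). Upk1b, a tetraspanin, had 9.93, 11.7, 13.2 and 26.5 TPM in positive and 77.2, 56.1, 71 and 74.0 TPM in negative libraries (log2 difference −2.20, SE 0.23, adjusted p = 4.91e-05). As with the rises, the 15 largest falls were taken only from genes whose gates did not overlap. The rest of the 15 largest falls were Sema4b, a semaphorin (−2.28), Ccdc162 (−2.23), the signalling scaffold Bank1 (−2.09), Tmem204 (−2.03), the platelet glycoprotein Gp9 (−1.91), the adhesion molecule Pecam1 (−1.87), Nhsl2 (−1.82), the GTPase Gimap6 (−1.80), the endocytic adaptor Epn2 (−1.79), the kinase Prkce (−1.77), the zinc transporter Slc39a12 (−1.76) and the arrestin-domain protein Arrdc3 (−1.74).

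Homeostatic microglial genes fell in 28 of 32 tested members and rose in 1, where 23.2% of all tested genes fell, with a median of −0.82 against −0.30. After rescaling, 21 fell and 2 rose, with a median of −0.49 against −0.015. P2ry12 (chromosome 3, chr3:59216272-59262871), the ADP receptor that steers microglial processes, had 2522, 2015, 2265 and 3606 TPM in the GFP-positive and 7176, 5933, 5927 and 6910.0 TPM in the GFP-negative libraries. All positive libraries lay below all negative ones, and library 4 was the closest to them (log2 difference −1.35, SE 0.15, adjusted p = 6.2e-05). Tmem119 (chromosome 5, chr5:113793729-113800516), a surface protein of microglia, had 1407, 1286, 1255 and 1867 TPM in positive and 3764, 3132, 3269.9 and 3466 TPM in negative libraries (log2 difference −1.24, SE 0.11, adjusted p = 1.34e-05). By absolute level, large falls included Cst3, P2ry12, Csf1r and Tmem119, and Cst3, the cysteine protease inhibitor cystatin C, averaged 28820 ± 3130 TPM in positive and 51040 ± 1660 TPM in negative libraries (log2 difference −0.83, SE 0.08, adjusted p = 2.16e-05). Csf1r depended on the scaling: it fell as deposited (−0.55) but did not pass after rescaling (−0.22, adjusted p = 0.152).

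Within the list, Selplg, a ligand of selectins, averaged 1506 ± 277 TPM in positive and 3423 ± 202 TPM in negative libraries (log2 difference −1.20, SE 0.10, adjusted p = 1.34e-05). Crybb1, a crystallin expressed by microglia, and Ecscr, a small transmembrane protein, differed by −1.21 and −1.0. Serpine2, an inhibitor of thrombin and plasminogen activators, was the 1 member that rose (log2 difference 0.61, SE 0.12, adjusted p = 0.0028). Fcrls, Sparc and Bin1 did not pass (−0.22, adjusted p = 0.0824, −0.13, adjusted p = 0.0844 and −0.23, adjusted p = 0.414). In library 4 the mean level of the list was −0.59 relative to the GFP-negative mean, against −0.98, −1.04 and −0.96 in positive libraries 1 to 3.

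**Figure D4:**
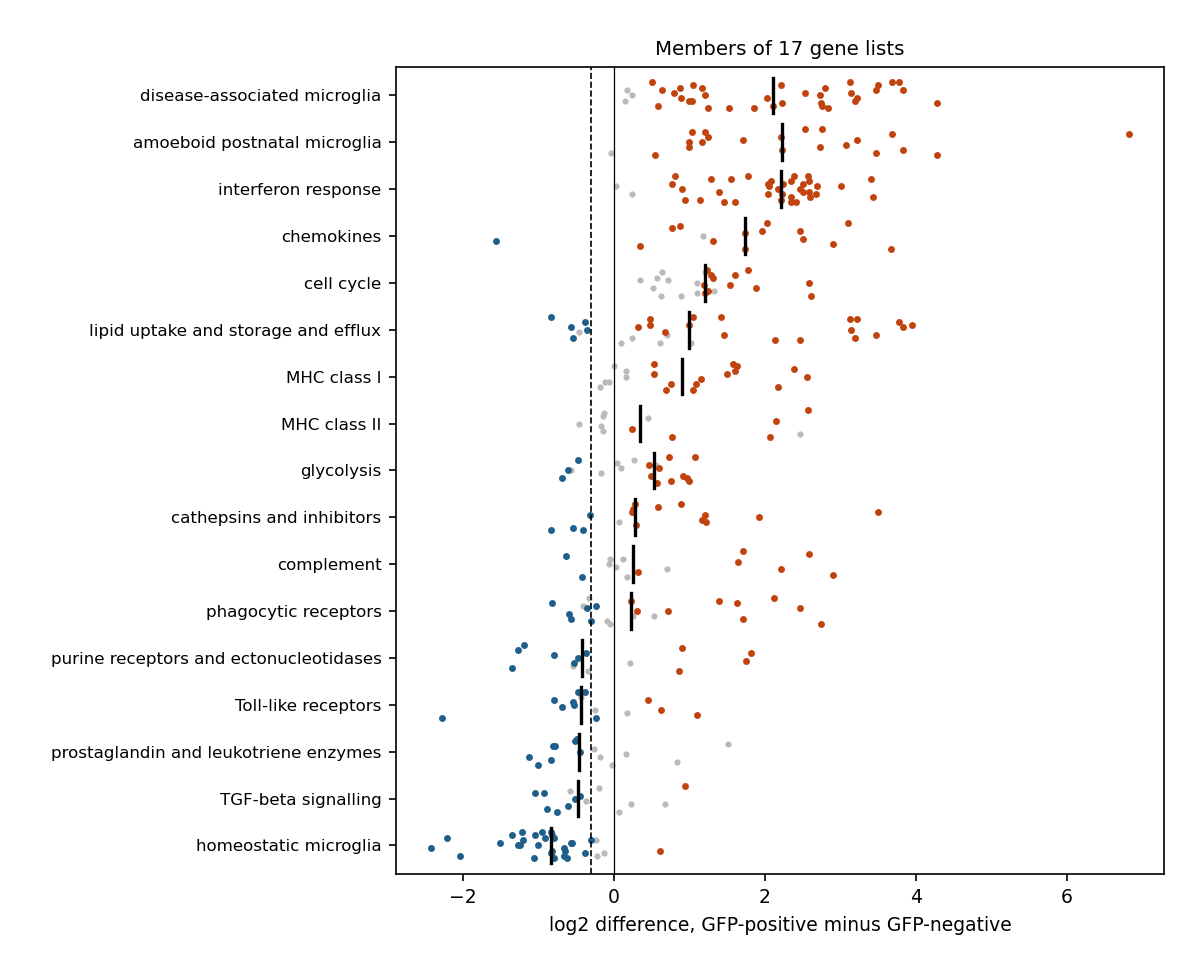
Log2 differences, GFP-positive minus GFP-negative, of the tested members of 17 gene lists (points, with a vertical offset that carries no value). Red points rose, blue points fell and grey points did not pass. Black bars are list medians and the dashed line is the median of all tested genes at −0.30. Medians run from 2.23 for the amoeboid list and 2.22 for the interferon response down to −0.82 for homeostatic microglia.

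Of 16 tested microglial transcription factors, 1 rose and 8 fell (2 and 6 after rescaling), where 23.2% of all tested genes fell. Their median difference was −0.37, against −0.30 for all tested genes, and after rescaling −0.03, against −0.015. Sall1, which maintains microglial identity, had 96.2, 89.9, 86.8 and 94.9 TPM in the GFP-positive and 173, 177, 186 and 159 TPM in the GFP-negative libraries, with no overlap and with library 4 among the others of its gate (log2 difference −0.91, SE 0.08, adjusted p = 1.41e-05). Maf, Mef2a and Ets1 fell by similar steps (−1.06, −0.92 and −0.96) and also after rescaling (−0.74, −0.58 and −0.64). The rise was in Bhlhe40, a repressor of the basic helix-loop-helix family, with 9.17, 11.1, 13.2 and 14.5 TPM in positive and 0, 2.46, 0.45 and 0.16 TPM in negative libraries (log2 difference 3.05, SE 0.36, adjusted p = 8.08e-05). Spi1, which encodes the lineage factor PU.1, and Irf8 did not pass (0.07, adjusted p = 0.751 and −0.07, adjusted p = 0.537).

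The TGF-beta pathway, which sustains the homeostatic programme, had 1 rise and 7 falls among 14 tested genes (2 and 3 after rescaling). Its receptor gene Tgfbr1 averaged 220.5 ± 48.1 TPM in positive and 448 ± 21.5 TPM in negative libraries (log2 difference −1.04, SE 0.12, adjusted p = 6.19e-05). Eng, a co-receptor, and Smad3, a transducer, fell by smaller steps (−0.92 and −0.89), while Id2, an inhibitor of helix-loop-helix factors, rose (log2 difference 0.94, SE 0.15, adjusted p = 0.000636). In the TREM2 pathway 1 gene rose and 10 fell of 13 tested, but after rescaling only 3 fell and 2 rose. Those with a fall under both scalings included the phosphatase Inpp5d (−0.88), the kinase Syk (−0.78) and Pik3cg (−0.94). Tyrobp, the adaptor of TREM2, rose (log2 difference 0.50, SE 0.08, adjusted p = 0.000661).

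Osteopontin receptors were mixed. Cd44, the non-integrin receptor, had 7.35, 11, 10.5 and 12.7 TPM in the GFP-positive and 1.51, 1.95, 0.87 and 1.96 TPM in the GFP-negative libraries, well apart (log2 difference 2.15, SE 0.29, adjusted p = 0.000167). Itga9, an integrin subunit that binds the cleaved protein, had 6.98, 9.1, 11.8 and 9.42 TPM in positive and 33.1, 19.9, 29.7 and 26.7 TPM in negative libraries and fell (log2 difference −1.46, SE 0.20, adjusted p = 0.000248). Itga4 rose (1.44) and Itgb3 fell (−0.44), the last only as deposited (rescaled −0.12, adjusted p = 0.639). Itgav, Itgb1, Itgb5 and Itga5 did not pass.

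Matrix and protease genes rose in 10 of 17 tested members and fell in 1 (12 and 1 after rescaling). Beside Mmp12 and Fn1, Fam20c, the kinase that phosphorylates osteopontin and other secreted proteins, averaged 27.4 ± 5.41 TPM in positive and 4.17 ± 1.36 TPM in negative libraries (log2 difference 2.48, SE 0.24, adjusted p = 2.31e-05). Adam8, a membrane protease, averaged 17.7 ± 5.45 TPM in positive and 2.4 ± 0.489 TPM in negative libraries (log2 difference 2.43, SE 0.25, adjusted p = 3.74e-05). Tgm2, a crosslinking transglutaminase, had 10.2, 11.3, 10.2 and 19.5 TPM in positive and 48.1, 32.1, 39.1 and 41.4 TPM in negative libraries and was the fall (log2 difference −1.61, SE 0.19, adjusted p = 9e-05).

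Receptors that sense damage and clear debris moved in both directions. Among purine receptors and ectonucleotidases, 4 of 14 rose and 7 fell (4 and 4 after rescaling), where 5.86% of all tested genes rose and 23.2% fell. Entpd1, the ectonucleotidase CD39, and P2ry13, an ADP receptor, fell with P2ry12 (log2 difference −1.19, SE 0.14, adjusted p = 7.75e-05 and −1.26). P2rx4, an ATP-gated channel, had 189, 171, 159 and 164 TPM in positive and 113, 97.2, 79.8 and 77.1 TPM in negative libraries and rose (log2 difference 0.90, SE 0.13, adjusted p = 0.000233). Adora1, the adenosine A1 receptor, also rose (1.81). Toll-like receptors and partners had 3 rises and 8 falls among 15 (4 and 2 after rescaling), so most of these falls depended on the scaling. Tlr2, which senses bacterial lipopeptides, had 246, 262, 259.6 and 238 TPM in positive and 129, 111, 112 and 115 TPM in negative libraries, with narrow spread in both gates (log2 difference 1.10, SE 0.08, adjusted p = 4.83e-06).

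Phagocytic receptors rose in 9 and fell in 6 of 21 tested members (11 and 2 after rescaling). All tested genes rose in 5.86% and fell in 23.2%, so the share of these receptors that fell was near that of all genes. Axl and Mertk, related receptors for dying cells, parted: Axl had 288, 307, 394 and 191 TPM in positive and 46.0, 29.5, 41.6 and 54.1 TPM in negative libraries (log2 difference 2.75, SE 0.29, adjusted p = 4.73e-05), while Mertk averaged 239 ± 26.6 TPM in positive and 354 ± 3.16 TPM in negative libraries and fell (log2 difference −0.57, SE 0.08, adjusted p = 0.000182; rescaled −0.24, adjusted p = 0.0157). Cd300lf, a receptor for phosphatidylserine and ceramide, and Fcgr4, an activating Fc receptor, rose (2.12 and 1.63), and the scavenger receptor Stab1 fell (−0.81). In the complement list 6 rose and 2 fell of 14 tested (10 and 0 after rescaling). Cfb, factor B of the alternative pathway, had 38.4, 64.9, 55.8 and 31.9 TPM in positive and 7.34, 8.98, 4.78 and 2.28 TPM in negative libraries (log2 difference 2.90, SE 0.36, adjusted p = 0.000116), and C4b, a complement C4 gene, had 83.3, 95.4, 44.9 and 39.6 TPM in positive and 15.2, 12, 6.79 and 6.05 TPM in negative libraries (log2 difference 2.59, SE 0.35, adjusted p = 0.00018). C1qa, C1qb and C1qc, the start of the classical pathway, did not pass as deposited (0.18, 0.12 and 0.71) and rose after rescaling (0.52, 0.46 and 1.04).

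Inhibitory and checkpoint receptors rose in 7 and fell in 6 of 17 tested members (8 and 4 after rescaling). Pdcd1, which encodes PD-1, had 34.5, 50.1, 66.3 and 36.9 TPM in the GFP-positive and 14.4, 5.79, 8.05 and 3.61 TPM in the GFP-negative libraries, without overlap (log2 difference 2.51, SE 0.34, adjusted p = 0.000173). Lilrb4a, an inhibitory immunoglobulin-like receptor with a close copy in the genome, averaged 126 ± 37.1 TPM in positive and 17.2 ± 5.53 TPM in negative libraries (log2 difference 2.80, SE 0.25, adjusted p = 1.41e-05). Vsir, the checkpoint protein VISTA, averaged 882 ± 124 TPM in positive and 1692 ± 106 TPM in negative libraries and fell (log2 difference −0.95, SE 0.09, adjusted p = 2.55e-05). Siglech, a microglial sialic acid receptor, averaged 1342 ± 282 TPM in positive and 2569 ± 199 TPM in negative libraries and fell as well (log2 difference −0.95, SE 0.11, adjusted p = 8.77e-05).

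Of 16 tested cathepsins and cathepsin inhibitors, 11 rose and 4 fell (11 and 1 after rescaling). The endolysosomal protease Ctsz averaged 3306 ± 310 TPM in positive and 1790 ± 211 TPM in negative libraries (log2 difference 0.89, SE 0.09, adjusted p = 4.65e-05) and Ctsl 2526 ± 469 TPM in positive and 1112 ± 130 TPM in negative libraries (log2 difference 1.17, SE 0.14, adjusted p = 9.4e-05). Ctse, a cathepsin of endosomes, was low in both gates but rose, with 4.73, 5.06, 2.24 and 4.1 TPM in positive and 0.2, 0.62, 0.17 and 0.2 TPM in negative libraries (log2 difference 1.93, SE 0.28, adjusted p = 0.000287). Other lysosomal hydrolases and membrane proteins had 12 rises and 6 falls of 34 as deposited, and all 22 that passed after rescaling had risen. Grn, which encodes progranulin, averaged 3468 ± 372 TPM in positive and 2085 ± 204 TPM in negative libraries (log2 difference 0.73, SE 0.09, adjusted p = 9.4e-05), and Lamp1, the main lysosomal membrane glycoprotein, 408 ± 93.3 TPM in positive and 193 ± 22.7 TPM in negative libraries (log2 difference 1.05, SE 0.15, adjusted p = 0.000343).

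Glycolytic genes rose in 10 and fell in 3 of 20 (12 and 0 after rescaling). Pkm, Pgk1, Tpi1, Gapdh, Ldha and the lactate exporter Slc16a3 differed by 1.07, 0.92, 0.99, 0.73, 0.76 and 0.97. All 76 cytosolic ribosomal protein genes rose, under both scalings, with a median of 0.64, and they made up 8.35 to 10.2% of TPM in GFP-positive and 5.48 to 6.88% in GFP-negative libraries. Nuclear genes of the respiratory chain rose in 14 and fell in 1 of 30 (22 and 0 after rescaling, 17 and 2 without positive library 4), led by Ndufa1 (log2 difference 1.17, SE 0.15, adjusted p = 0.000116).

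Cell cycle genes of the G2 and M phases rose in 12 of 23 tested members and fell in none (16 and 0 after rescaling), with a median of 1.21. Levels were low. Mki67, the proliferation marker Ki-67, had 5.36, 2.98, 4.01 and 2.2 TPM in the GFP-positive and 0.72, 0.55, 0.1 and 0 TPM in the GFP-negative libraries, without overlap (log2 difference 1.78, SE 0.30, adjusted p = 0.00077). Ccnb2, a mitotic cyclin, had 5.15, 13.8, 15.7 and 7.19 TPM in positive and 0.5, 0.61, 3.01 and 0 TPM in negative libraries (log2 difference 2.58, SE 0.44, adjusted p = 0.000872). Stmn1, Ube2c, Cdk1 and Bub1 rose by 1.21, 2.61, 1.29 and 1.24. DNA replication genes gave 5 rises and 1 fall among 25 (7 and 0 after rescaling).

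Many markers of other cells were low, but the summed levels of some lists were not. Of 21 monocyte markers 11 could be tested, 4 rose (Fn1, Itgal, Lyz1 and Itga4) and none fell, with 4 and 0 after rescaling and 5 and 1 without positive library 4, where Plac8 also rose and Nr4a1 fell. Ly6c2 was above 0 only in positive library 2, at 12.9 TPM. Of 19 markers of border-associated macrophages 11 were tested, and 5 rose and 2 fell (5 and 1 after rescaling, 5 and 3 without positive library 4). Ms4a7 had 3.39, 7.07, 4.94 and 14.5 TPM in positive and 0, 0.36, 0 and 0 TPM in negative libraries (log2 difference 2.81, SE 0.37, adjusted p = 0.000162), and Folr2 had 36.4, 45.1, 30.6 and 8.99 TPM in positive and 2.1, 1.9, 5.65 and 3.03 TPM in negative libraries (log2 difference 2.79, SE 0.47, adjusted p = 0.00076). Siglec1, Pf4 and Dab2 also rose (2.26, 3.10 and 0.75), whereas the summed level of the list was 416 to 624 TPM in positive and 636 to 736 TPM in negative libraries. Mrc1, the mannose receptor that defines these macrophages, had 4.15, 4.83, 3.54 and 18.7 TPM in positive and 7.21, 8.57, 9.16 and 13.4 TPM in negative libraries and did not pass (adjusted p = 0.323). Without positive library 4 it fell (−1.01, adjusted p = 0.00651). Cd163 and Cd209b were above 0 in no library of either gate but positive library 4, at 0.86 and 4.66 TPM, and Lyve1 was highest there, at 2.72 TPM. The part of these cells in the results was not tested.

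T cell genes were near 0 in most libraries, and positive library 2 held the most, with Trac at 13.5 TPM and Cd3g at 3.3 TPM. The neutrophil genes Ly6g and S100a8 were listed at 0 in every positive library, as was the endothelial gene Cldn5. Even so, the 14 neutrophil markers summed to 254 to 314 TPM in positive and 279 to 333 TPM in negative libraries. The 12 B cell markers summed to 255.5 to 348 TPM in positive and 378 to 426 TPM in negative libraries. Dendritic cell markers summed to 497 to 924.9 TPM in positive and 275.5 to 345 TPM in negative libraries. Of 14 such markers 9 were tested, 1 rose (Bst2, which is also an interferon-response gene) and 3 fell (Siglecg, Wdfy4 and Batf3), with 1 and 1 after rescaling. Without positive library 4, 1 rose and 2 fell. Cspg4, from the list of oligodendrocyte precursors, had 11, 16.3, 14.3 and 4.79 TPM in positive and 2.75, 1.46, 0.41 and 0 TPM in negative libraries (log2 difference 2.62, SE 0.42, adjusted p = 0.000608), while Pdgfra, the defining marker of those cells, was listed at 0 in all positive libraries. Of the remaining marker lists, T cells had 2 of 14 genes tested (Cd5 rose and Il7r fell), NK cells 3 of 12 (1 fell), B cells 3 of 12 (3 fell), oligodendrocytes 5 of 12 (1 fell), astrocytes 3 of 12 (1 fell) and endothelial cells and pericytes 4 of 16 (Flt1 rose, Pecam1 and Cdh5 fell). Without positive library 4 Cdh5 did not pass (−1.51, adjusted p = 0.0691, against −1.73, adjusted p = 0.0303, with it). After rescaling the falls were 1 for B cells, 1 for endothelial cells and pericytes and 0 for NK cells, oligodendrocytes and astrocytes, and 1 oligodendrocyte gene rose. Neutrophils, neurons and erythroid cells had 1 tested gene each, and none passed.

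Both gates of the injured cortex were also set against microglia of the contralateral cortex. There, 5150 genes passed for GFP-positive microglia (36.0%; 7.56% higher and 28.4% lower) and 34 for GFP-negative microglia (0.238%), of which 31 were higher (0.217%) and 3 lower (0.0210%) in the GFP-negative stroke libraries. Of those 31, 10 belonged to the interferon list, 5 to the disease-associated list and 4 to the MHC class I list. Oas2, which makes an activator of RNase L, averaged 6.31 ± 2.9 TPM in GFP-negative stroke and 0.39 ± 0.11 TPM in contralateral libraries (SD, n = 4 each; log2 difference 2.28, SE 0.34, adjusted p = 0.0201). Apoe averaged 3055 ± 1160 TPM in GFP-negative stroke and 880 ± 116 TPM in contralateral libraries (log2 difference 1.72, SE 0.24, adjusted p = 0.02). Ccl12 and H2-K1 were higher too (1.33, adjusted p = 0.00684, and 0.87, adjusted p = 0.0364). P2ry12 averaged 6486 ± 652 TPM in the GFP-negative and 6823 ± 808 TPM in the contralateral libraries. The contrasts of both gates share the contralateral libraries.

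The study holds the same sort after a stroke at P6 with collection at P9, in 4 GFP-positive and 4 GFP-negative libraries of the same genotype. The difference between the strokes was tested directly, as the P28 contrast minus the P6 contrast over 12413 genes tested in both tables. It passed for 1242 genes (10.0%), 496 higher (4.00%) and 746 lower (6.01%) at P28, around a median of −0.15. After rescaling within each of the tables, 882 passed (7.11%), 680 higher (5.48%) and 202 lower (1.63%), around a median of 0.03, so the balance of directions depended on the scaling. List counts for the P28 minus P6 difference are to be read against 4.00% higher and 6.01% lower. After rescaling these shares are 5.48% and 1.63%. The tables were normalised separately, age and interval to collection differ together, and neither can be told apart from the other or from the table. The difference for Spp1 did not pass (2.24, SE 1.29, adjusted p = 0.309), with 309, 784, 239.8 and 425 TPM in the P6 GFP-positive and 15.1, 91.6, 6.41 and 5.97 TPM in the P6 GFP-negative libraries.

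The contrast of interferon-response genes was larger at P28. Of 37 members tested in both, 31 had a larger contrast at P28 and 0 a smaller one (33 and 0 after rescaling). The list's median difference was 2.22 at P28 and −0.09 at P6. Ifi211 differed by 3.43 at P28 and by −0.60 at P6, a difference of 4.03, SE 0.65, adjusted p = 0.000305. Ccl5, a chemokine for T cells, had 153, 217, 126 and 106 TPM in P28 GFP-positive and 30.1, 24.9, 11.3 and 13.6 TPM in P28 GFP-negative libraries, against 3.07, 0, 0.68 and 1.86 TPM in P6 GFP-positive and 6.13, 9.38, 3.76 and 7.41 TPM in P6 GFP-negative libraries (4.72, SE 1.02, adjusted p = 0.00438). For MHC class I, 13 of 20 contrasts were larger and 0 smaller at P28 (14 and 0 after rescaling).

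The mean contrasts of the main MHC class II chains had opposite signs in the strokes. In the P28 contrast alone H2-Eb1 did not pass, and H2-Aa and H2-Ab1 lost the call without GFP-positive library 4. H2-Aa had 7.23, 0, 0 and 12.5 TPM in P6 GFP-positive and 74.1, 159, 23.2 and 178 TPM in P6 GFP-negative libraries, so at P6 the positive gate lay below the negative gate, without overlap. Its contrast was 2.57 at P28 and −4.71 at P6 (difference 7.28, SE 1.32, adjusted p = 0.000901). H2-Eb1 and H2-Ab1 followed, with differences of 6.24 and 5.05, and 6 of 11 list members passed, all larger at P28 (7 and 0 after rescaling). Without P28 GFP-positive library 4 the differences were 6.67 for H2-Aa, 5.62 for H2-Eb1 and 4.48 for H2-Ab1, and all passed.

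Disease-associated genes had larger contrasts at P28 in 27 of 36 members and smaller ones in none (28 and 0 after rescaling), with list medians of 2.11 at P28 and 0.48 at P6. A larger contrast does not mean a higher level in the positive gate. Apoe averaged 41540 TPM in P6 GFP-positive and 23290 TPM in P6 GFP-negative libraries, against 25930 and 3055 TPM at P28. Cst7 had instead 32.7 and 29.2 TPM at P6, against 1304 and 119 TPM at P28. These levels come from tables normalised separately. For the homeostatic list, 16 of 32 contrasts were lower at P28 and 1 higher (6 and 2 after rescaling). Over all genes tested in both strokes, 6.01% were lower and 4.00% higher (1.63% and 5.48% after rescaling). The largest difference in the other direction was in Rac1. This GTPase, which drives lamellipodia, had 85.2, 38.8, 84.7 and 103 TPM in P28 positive and 57.7, 79.9, 75.4 and 79.8 TPM in P28 negative libraries, with the gates overlapping, and 209, 761, 799 and 303 TPM in P6 positive and 49.8, 59.2, 56.5 and 43.9 TPM in P6 negative libraries, without overlap (−3.05, SE 0.48, adjusted p = 0.000269). The other 4 with the largest negative differences were Snx20, a sorting nexin (−2.50), Klhdc8b, a kelch-domain protein (−1.99), Hgsnat, a lysosomal acetyltransferase (−1.97), and Nr1d1, the clock repressor REV-ERB alpha (−1.95).

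**Figure D5:**
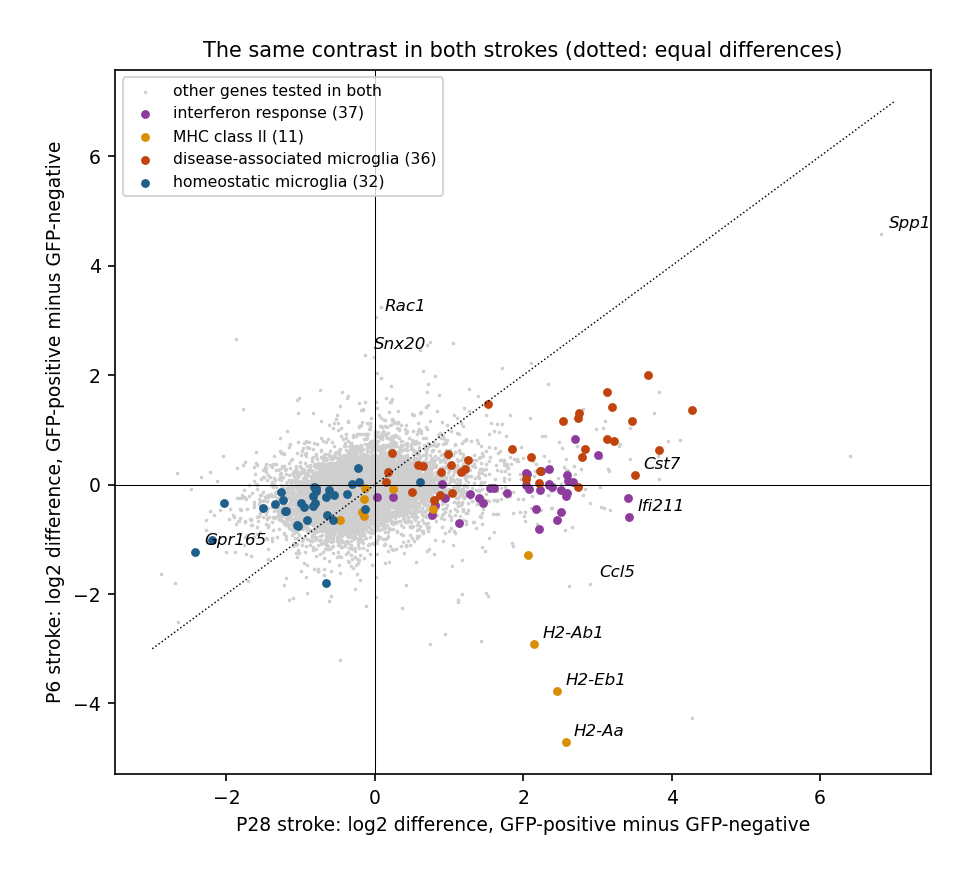
Log2 difference of GFP-positive minus GFP-negative microglia after the P28 stroke (horizontal axis) and after the P6 stroke (vertical axis) for genes tested in both, with 4 lists coloured and the number of their members in the legend. On the dotted line both differences are equal. Interferon genes lie near 0 on the P6 axis and around 2 on the P28 axis, and H2-Aa, H2-Eb1 and H2-Ab1 lie in the lower right.

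For orientation, the same contrast in the other models of the study is given as a description, with no test of the difference. The tables came from a cuprizone diet, which strips myelin, experimental autoimmune encephalomyelitis (EAE), a glioma and the 5xFAD amyloid model. Igf1 differed by 4.28 in the P28 stroke, beside 4.65 in cuprizone, 2.65 in EAE, 2.39 in glioma and 1.90 in 5xFAD. Apoe differed by 3.14 in the P28 stroke, beside 4.08 in cuprizone, 0.93 in EAE, 1.00 in glioma and 1.45 in 5xFAD. P2ry12 was lower in each positive gate, with −1.35 in the P28 stroke, beside −1.83 in cuprizone, −0.95 in EAE, −2.35 in glioma and −1.20 in 5xFAD. Ifi211 differed by 3.43 in the P28 stroke, beside 2.63 in cuprizone, −0.25 in EAE, 0.01 in glioma and 0.41 in 5xFAD. Genes called in this contrast made up 29.0% in the P28 stroke, 3.36% in the P6 stroke, 10.2% in cuprizone, 0.688% in EAE, 6.67% in glioma and 8.16% in 5xFAD, with 3 or 4 libraries per gate.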

How the data were processed

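RNA was sequenced from sorted microglia in bulk libraries of 2000 cells, and the authors deposited 1 TPM table for each model. Per the submitters' processing notes, cutadapt 2.10, STAR 2.7.5c, RSEM 1.3.3 and edgeR 3.32.0 were used, with the builds GRCm38 and mm10; their settings, read depth and handling of strand are unknown, as the sources used here do not give them. Without counts, no count model was applied. Samples were grouped by the labels. Genes with at least 1 TPM in 4 or more of the 12 libraries of the P28 stroke table were tested on log2(TPM + 1), a pseudocount of 1, with limma 3.58.1 in R 4.3.3 (variance trend, 3 groups, Benjamini-Hochberg over all tested genes, called at adjusted p under 0.05). The P28 minus P6 difference was fitted over 24 libraries. Statistical code was tested on simulated data.

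The genes named were Spp1, the 15 largest differences in each direction (a mean of 10 TPM or more in the higher gate, no overlap, no gene models or pseudogenes), the 5 largest TPM differences in each direction, members of each list with the smallest adjusted p or needed for its makeup, and 5 in each direction for the P28 minus P6 difference. Gene members and lists were chosen with earlier results of these data known. Figures and sequence searches used Python 3.11.15. Alternatives covered pseudocount, filter, rescaling, replicates left out, replicate block, library weights and trend. Some genes that met these rules are not reported here. The single-cell samples were not analysed here.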

Additional observations from a re-analysis of the deposited data

Results flagged for a closer look

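In 42 of 400 gene and gate pairs the lowest or highest of the 4 libraries stood apart from the rest. Its gap to the nearest exceeded Dixon's critical value at the 95% level, which chance exceeds in about 1 in 20 groups. The pairs are of genes named in this text, a selected set, and use TPM without logs. That rate therefore gives no expectation for their count. GFP-positive library 4 accounted for 21 of them. In GFP-positive library 1 the level in TPM was 1.83 for Nr1d1. In GFP-positive library 2 the level in TPM was 3.55 for Cdh5. In GFP-positive library 4 the level in TPM was 53.3 for Fabp5, 12.3 for Tlr5, 26.0 for Tmem204, 12.6 for Gimap6, 12.6 for Prkce, 5559 for Csf1r, 694 for H2-Aa, 619 for H2-Eb1, 853 for H2-Ab1, 49.3 for Ccr2, 1839 for Cd74, 1825 for Ctsl, 2491 for Cx3cr1, 488 for Entpd1, 25.9 for Ets1, 18.7 for Mrc1, 93.9 for Slc40a1, 292 for Tgfbr1, 19.5 for Tgm2, 1067 for Vsir and 728 for mt-Co3. In GFP-negative library 1 the level in TPM was 1.76 for Mmp12, 7.56 for Baiap2l2, 12903 for Ctsd, 85.6 for Clec7a, 2105 for Ctsz, 80.8 for Fcgr4, 0.32 for Lyz1 and 1117 for Serpine2. In GFP-negative library 2 the level in TPM was 1.6 for Saa3, 3.46 for Cxcl13, 0.62 for Ctse, 3289 for Cx3cr1, 0.36 for Ms4a7 and 394 for mt-Co3. In GFP-negative library 3 the level in TPM was 416 for Irf8 and 7.16 for Nr4a1. In GFP-negative library 4 the level in TPM was 125 for H2-Aa, 158 for Bst2 and 0.24 for Cxcl14.

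The P28 and P6 strokes differed, by the test of the difference of contrasts, in 1242 genes. Among the named genes the P28 minus P6 log2 difference was 7.28 for H2-Aa, 6.24 for H2-Eb1, 5.05 for H2-Ab1, 4.72 for Ccl5, 4.03 for Ifi211, −1.95 for Nr1d1, −1.97 for Hgsnat, −1.99 for Klhdc8b, −2.50 for Snx20 and −3.05 for Rac1.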

How the results depend on the processing

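Rescaling each library by its median ratio reduced the genes called between the gates to 2230, and rescaling without GFP-positive replicate 4 gave 2468, against 4154 as deposited; the share of calls that were higher was 63.5% after rescaling and 20.2% as deposited. Pseudocounts of 0.1 and 4, no filter, a filter at 5 TPM, the 8 stroke libraries alone, library weights and no variance trend gave between 3311 and 4627. Leaving out 1 replicate gave 3182 (GFP-positive replicate 2) to 4607 (GFP-positive replicate 4). Spp1 ranged from 5.69 to 7.49 with a replicate left out. The P28 minus P6 count was 882 after rescaling and 900 to 1653 with a replicate left out (P28 GFP-positive replicates 3 and 4). Spp1 and the genes chosen by rule for the largest log2 or TPM differences between the gates, 39 in all, kept their call with each replicate left out, which other genes in the text, such as H2-Aa, did not. Without the filter 1 of them, mt-Rnr2, lost its call (0.48, adjusted p = 0.0513). The cause of the lower counts after rescaling was not tested. After removal of group means, libraries of the same replicate number correlated at 0.064 at most. The positive library correlated best with the negative library of its own number for replicates 3 and 4, but not for 1 and 2. These values do not settle whether the numbers pair the samples. With a replicate block 4140 genes passed, 848 higher and 3292 lower, and 1345 for P28 minus P6. With the block 1 endothelial and pericyte marker fell, against 2 with no block. The deposited TPM carry no read depth, so the precision of low levels rests on 4 libraries per gate alone.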

Other observations

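Counts for further gene groups stand against 5.86% of all tested genes that rose and 23.2% that fell (9.91% and 5.68% after rescaling). Annexins, galectins and S100 proteins rose in 7 of 17 tested members and fell in 1 (9 and 0 after rescaling, and 2 falls without positive library 4), with a median of 0.54. Anxa5, which binds phosphatidylserine, had 110.2, 142, 142 and 136 TPM in the GFP-positive and 33, 28.4, 18.8 and 29.9 TPM in the GFP-negative libraries (log2 difference 2.25, SE 0.18, adjusted p = 7.84e-06). Lgals3, the galectin of activated phagocytes, had 48.6, 57.9, 97.3 and 45.8 TPM in positive and 7.86, 9.48, 9 and 6.01 TPM in negative libraries, without overlap (log2 difference 2.75, SE 0.31, adjusted p = 6.52e-05). In the iron and redox list 8 of 24 rose and 5 fell (12 and 2 after rescaling). The ferritin chain Ftl1 averaged 3847 ± 228 TPM in positive and 1815 ± 89.9 TPM in negative libraries (log2 difference 1.08, SE 0.07, adjusted p = 4.19e-06) and Fth1 3590 ± 343 TPM in positive and 1753 ± 124 TPM in negative libraries (log2 difference 1.03, SE 0.08, adjusted p = 6.99e-06). Slc40a1, the iron exporter ferroportin, averaged 62.1 ± 21.2 TPM in positive and 128 ± 12.3 TPM in negative libraries and fell (log2 difference −1.08, SE 0.17, adjusted p = 0.000626). Cybb, the catalytic subunit of the NADPH oxidase, rose (log2 difference 2.84, SE 0.36, adjusted p = 0.000129).

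Prostaglandin and leukotriene enzymes fell in 8 of 14 tested members and rose in none (4 and 1 after rescaling), with a median of −0.46. Ptgs1, the cyclooxygenase COX-1, averaged 491 ± 83.9 TPM in positive and 854 ± 94.7 TPM in negative libraries (log2 difference −0.81, SE 0.11, adjusted p = 0.000226), and Hpgd, which degrades prostaglandins, averaged 196 ± 83.6 TPM in positive and 401 ± 15.9 TPM in negative libraries (log2 difference −1.12, SE 0.20, adjusted p = 0.00128). Among growth factors 6 of 14 rose and 2 fell (7 and 1 after rescaling), and Csf1, the ligand of Csf1r, had 61.6, 109, 127 and 37.8 TPM in positive and 20.7, 16.4, 17.7 and 9.09 TPM in negative libraries (log2 difference 2.23, SE 0.33, adjusted p = 0.000333). Cytoskeletal genes rose in 9 of 27 and fell in 4 (15 and 1 after rescaling). NF-kB targets rose in 5 of 19 and fell in 4 (5 and 1), and hypoxia genes rose in 5 of 17 and fell in 3 (7 and 0). Before rescaling, the share that rose lay above that of all genes in both lists. The share that fell was near that of all genes. Unfolded protein response genes rose in 1 of 20 and fell in 4 (4 and 0), both shares near those of all genes before rescaling. Of 20 immediate early and heat shock genes, 1 rose and 3 fell (4 and 2), also near the shares of all genes before rescaling. Without positive library 4, 2 of them rose and 4 fell. Acod1, which makes itaconate, had 2.79, 23.3, 11.5 and 3.39 TPM in positive and 0.81, 0.66, 0.27 and 0 TPM in negative libraries (log2 difference 2.59, SE 0.49, adjusted p = 0.00177). The mitochondrial gene mt-Co3 was listed near 0 in 3 of 4 negative libraries, with 293, 328, 316 and 728 TPM in positive and 0.03, 394, 0.01 and 0.04 TPM in negative libraries, while its neighbours on the same genome, such as mt-Co1, averaged 2306 ± 70.2 TPM in positive and 1701 ± 166 TPM in negative libraries.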
